A study of Mus musculus with 9 samples.

Results

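The 8 troponin genes of the mouse were examined in RNA-seq libraries of embryonic cardiac outflow tracts. They encode the slow skeletal, cardiac and fast skeletal isoforms of the 3 troponin subunits and were taken by gene symbol from the 48397 symbols counted. Troponin T anchors the complex to tropomyosin, troponin I holds the thin filament in its inhibited state, and troponin C binds the calcium that releases it. The embryonic heart uses cardiac troponin T (Tnnt2), slow skeletal troponin I (Tnni1) and the troponin C shared by slow and cardiac muscle (Tnnc1). Cardiac troponin I (Tnni3) replaces Tnni1 as the heart matures, and slow skeletal troponin T (Tnnt1) and the fast isoforms (Tnnt3, Tnni2 and Tnnc2) are best known from skeletal muscle. The family was chosen by its gene symbols with the HO and WT counts of these same libraries known, in which DESeq2 had called Tnnt1 lower. The difference between genotypes is therefore described here for all 8 genes and is not tested.

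Tissue was dissected at embryonic day 12.5 from C57BL/6J embryos of 2 genotypes. The HO group held 5 libraries with the genotype Nkx2-5delta-enh/delta-enh, homozygous for deletion of an anterior second heart field enhancer of the cardiac transcription factor gene Nkx2-5. The WT group held 4 libraries of Nkx2-5+/+ littermates. The labels do not say whether a library is 1 embryo or a pool, so p-values measure the spread between these libraries, which may be partly technical. Each library had between 27707435 and 49094225 reads assigned to genes, and levels are given as CPM, each library's counts scaled to its depth and composition. The count files carry a number in their names: HO 1, HO 2, WT 1 and WT 2 share the first, HO 3, HO 4, WT 3 and WT 4 share the second, and HO 5 has a number of its own. What that number stands for is not given in the sources used here. It is used below to compare libraries within it and as a factor beside genotype. Where the other numbers are named, the second number and that of HO 5 are pooled. Markers of heart muscle were abundant in both groups, with Actc1, the cardiac actin gene, at 5537 ± 999 CPM in HO (SD, n = 5) and 6209 ± 2074 CPM in WT (SD, n = 4). Library HO 2 stood apart in neuron and Schwann cell markers, whose 11 genes summed to 2817 CPM there and to no more than 134 CPM in any other library.

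Nkx2-5 checked the genotype labels. It stood at 16.5, 24.4, 17.8, 11.4 and 17.4 CPM in HO 1 to HO 5, against 18.8, 42.0, 45.0 and 39.5 CPM in WT 1 to WT 4. WT 1 lay inside the HO range and the other 3 WT libraries above it. The log2 fold change was -1.05 (SE 0.26), with an exact two-sided permutation p of 0.0238 over 126 labellings and an edgeR adjusted p of 0.896 over all genes.

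The troponin genes lie in 3 troponin I and troponin T pairs and at 2 separate troponin C loci (GENCODE M21, mm10). Tnni3 (chromosome 7, 4518305 to 4524229, minus strand) is followed after 1.922 kb by Tnnt1 (4504570 to 4516382, minus strand), with no gene between them. On chromosome 1, Tnni1 (135779434 to 135810989) is 25.364 kb from Tnnt2 (135836354 to 135852260), with Lad1 between them. Tnni2 (142441808 to 142444410) and Tnnt3 (142498836 to 142516009) lie 54.425 kb apart on chromosome 7 around Lsp1, and these 4 genes are on the plus strand. Tnnc1 (chromosome 14, 31208312 to 31211729, plus strand) sits inside the gene Nisch on the opposite strand without sharing exon bases with it. Tnnt1 overlaps no other annotated gene, whereas 4.17% of the exon bases of Tnni3 are shared with Dnaaf3 on the same strand.

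Promoters of Tnnt1 and its neighbour Tnni3 are shown because these genes are neighbours and the genotypes overlapped for Tnni3 but not for Tnnt1, and those of Tnnt2 and Tnni1 because these genes supply most of the troponin T and troponin I transcript. RefSeq (GRCm38.p6) held a promoter for 6 of the 8 genes. Each sequence runs from 250 bases before to 50 bases after an annotated transcript start, the first entry being used for Tnni1 and Tnnt2. The windows are chr7:4515926-4516225 (minus strand) for Tnnt1, chr7:4522479-4522778 (minus strand) for Tnni3, chr1:135836084-135836383 (plus strand) for Tnnt2 and chr1:135799171-135799470 (plus strand) for Tnni1.
Tnnt1: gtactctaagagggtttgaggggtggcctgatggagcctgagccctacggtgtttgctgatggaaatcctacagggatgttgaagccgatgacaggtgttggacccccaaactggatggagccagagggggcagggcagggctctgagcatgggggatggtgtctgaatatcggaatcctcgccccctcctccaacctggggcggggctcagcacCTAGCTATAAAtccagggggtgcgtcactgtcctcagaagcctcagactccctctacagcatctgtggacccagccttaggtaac
Tnni3: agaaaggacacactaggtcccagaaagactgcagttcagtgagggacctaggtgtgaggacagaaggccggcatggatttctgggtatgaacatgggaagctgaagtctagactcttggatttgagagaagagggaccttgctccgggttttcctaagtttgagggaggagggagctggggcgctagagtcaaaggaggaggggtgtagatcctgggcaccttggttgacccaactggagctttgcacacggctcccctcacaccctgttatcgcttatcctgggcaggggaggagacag
Tnnt2: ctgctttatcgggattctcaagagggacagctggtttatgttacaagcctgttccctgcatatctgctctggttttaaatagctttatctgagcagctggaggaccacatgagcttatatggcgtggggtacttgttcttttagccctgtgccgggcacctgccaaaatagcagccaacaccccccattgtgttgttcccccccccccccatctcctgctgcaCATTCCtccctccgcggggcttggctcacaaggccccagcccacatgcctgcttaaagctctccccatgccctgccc
Tnni1: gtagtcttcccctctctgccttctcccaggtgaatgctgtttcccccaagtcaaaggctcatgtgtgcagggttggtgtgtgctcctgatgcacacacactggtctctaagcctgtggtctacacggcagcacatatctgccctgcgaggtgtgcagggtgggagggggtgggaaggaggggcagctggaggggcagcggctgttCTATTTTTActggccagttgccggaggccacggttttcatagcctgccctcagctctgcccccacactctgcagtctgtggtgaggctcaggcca
Capitals mark matches on either strand to 6 motifs. The Tnnt1 window held TATAAA, found in 13.6% of 32851 promoters of this length, and overlapping it a match to CTANNNNTA, a loose form of the MEF2 site found in 21% of promoters. The Tnni1 window held 1 match to CTANNNNTA, and the Tnnt2 window held CATTCC, the MCAT motif bound by TEAD factors, found in 14.7% of promoters. No window shown matched TNAAGTG, the element bound by Nkx2-5 (11.5% of promoters), TGATAA (9.05%) or the CArG box (1.63%), and Tnni3 matched none of the 6. A match is a run of letters and not a shown binding site, and the absence of one applies to these windows alone.

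The heart muscle isoforms were far more abundant than the skeletal ones. Compared per kb of the median coding transcript, a length chosen after the values were seen, Tnni1, Tnnt2 and Tnnc1 were the most abundant, at 1305 ± 186, 1230 ± 283 and 1197 ± 121 CPM per kb in HO and 1451 ± 450, 1426 ± 431 and 1263 ± 374 CPM per kb in WT (SD). These 3 genes did not differ beyond their spread. Tnni3 followed at 285 ± 57.1 CPM per kb in HO and 321 ± 103 CPM per kb in WT. The skeletal isoforms were far below, with Tnnt1 at 17.4 ± 4.79 CPM per kb in HO and 38.7 ± 8.86 CPM per kb in WT, and Tnni2 at 15.2 ± 5.17 CPM per kb in HO and 14.6 ± 6.67 CPM per kb in WT. Tnnt3 was at 2.22 ± 0.65 CPM per kb in HO and 2.13 ± 0.62 CPM per kb in WT. Tnnt1 and Tnni2 thus lay within each other's spread in HO, and Tnnt1 above Tnni2 in WT. Per kb of all annotated exons, which total 7.752 kb for Tnnt2 and 3.6 kb for Tnni1, the 3 most abundant genes separated in level. Tnnc1 was then at 829 ± 84.0 CPM per kb in HO and 875 ± 259 CPM per kb in WT, Tnni1 at 376 ± 53.5 CPM per kb in HO and 418 ± 130 CPM per kb in WT, and Tnnt2 at 175 ± 40.4 CPM per kb in HO and 203 ± 61.4 CPM per kb in WT.

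Tnnt1 stood lower in HO than in WT. It had 23.7, 15.6, 16.01, 11.7 and 14.2 CPM in HO 1 to HO 5, against 27.9, 47.4, 32.9 and 36.2 CPM in WT 1 to WT 4. Every HO library was below every WT library, the nearest being HO 1 and WT 1. Raw counts ran from 329 to 1175 in HO and from 1004 to 1910 in WT, so counting error was small beside the spread between libraries. The mean was 16.2 ± 4.48 CPM in HO (SD, n = 5) and 36.1 ± 8.27 CPM in WT (SD, n = 4), the HO mean being 44.9% of that of WT. The log2 fold change was -1.15 (SE 0.21), and it lay between -1.33 and -0.995 over the fits that each omitted 1 library. Of the 7 troponin genes with reads, Tnnt1 was the 1 gene whose groups did not overlap, which held for 1.80% of all 16522 genes tested, and the 1 gene called by DESeq2, which called 0.225% of genes. edgeR called 0% of genes and limma-voom 0.0242%, Tnnt1 not among them. At an unadjusted edgeR p under 0.05, met by 5.27% of all genes (2.94% lower in HO), Tnnt1 was again the 1 troponin gene. Since Tnnt1 was known from this contrast, nothing is read from these shares. In a bulk sample, fewer cells of a type and less RNA per cell cannot be told apart.

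**Figure D1:**
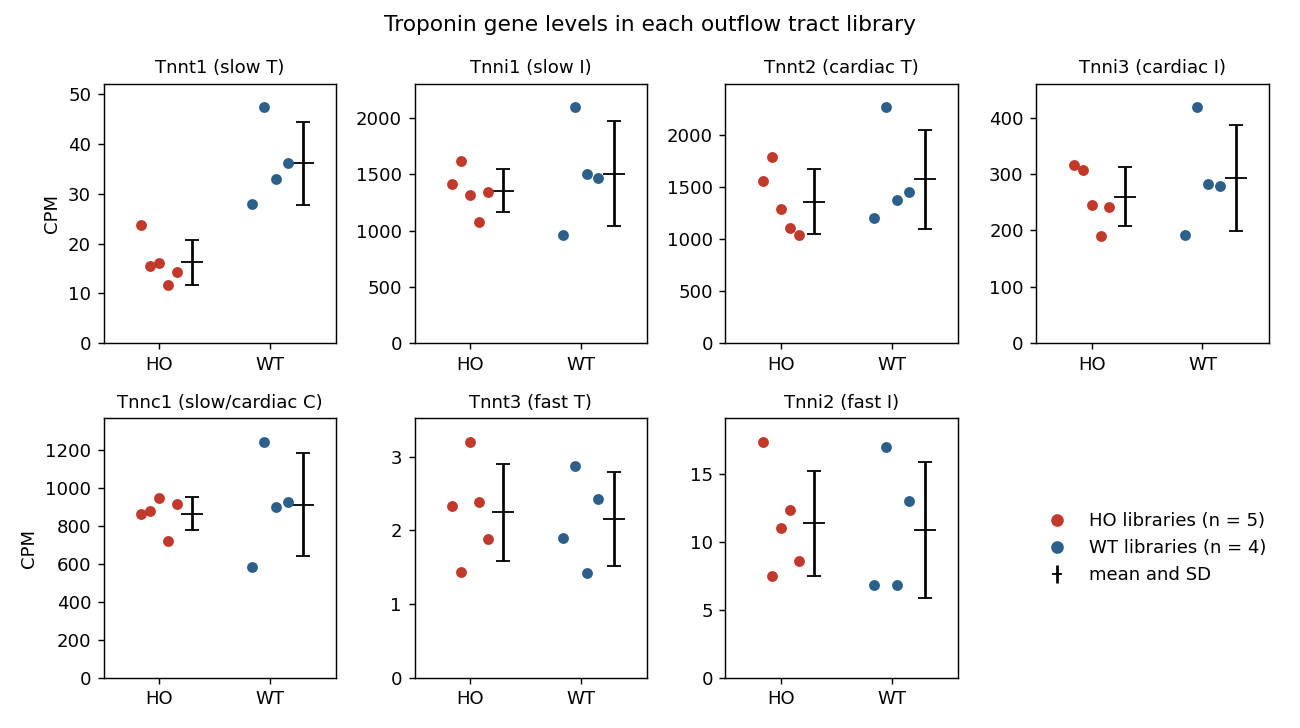
Level of 7 troponin genes (CPM, linear axes from 0, each on its own scale) in the 5 HO and 4 WT libraries, 1 point per library, with mean and SD. Tnnt1 alone has no HO library as high as the lowest WT library (at most 23.7 against at least 27.9 CPM), whereas the other 6 genes overlap.

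The slow and cardiac isoforms that make up most of the troponin in these samples overlapped between genotypes. Tnnt2, the cardiac troponin T gene, had 1562, 1786, 1294, 1107 and 1043 CPM in HO 1 to HO 5, against 1199, 2271, 1375 and 1454 CPM in WT 1 to WT 4, a log2 fold change of -0.21 (SE 0.21). The WT libraries span the whole HO range except its 2 lowest values. Tnni1, the slow skeletal troponin I gene of the embryonic heart, had 1413, 1615, 1321, 1079.6 and 1344 CPM in HO, against 957, 2099, 1503 and 1467 CPM in WT, with a log2 fold change of -0.15 (SE 0.20). All 5 HO values lie between the lowest and the highest WT library.

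Tnni3, the cardiac troponin I gene next to Tnnt1, had 315, 307, 246, 189 and 241 CPM in HO, against 192, 418, 282 and 278 CPM in WT, a log2 fold change of -0.17 (SE 0.21). Tnnc1, the troponin C gene of slow and cardiac muscle, had 861, 879, 947, 718 and 911 CPM in HO, against 580.0, 1240.3, 899 and 924 CPM in WT, a log2 fold change of -0.08 (SE 0.19). For all 4 of these abundant genes WT 1 was the lowest WT library and WT 2 the highest of all 9. HO means were 86.3% of the WT mean for Tnnt2, 89.9% for Tnni1, 88.7% for Tnni3 and 94.8% for Tnnc1. Without WT 2 the 4 log2 fold changes were 0.02, 0.05, 0.05 and 0.11 in the same order, so their sign rested on that library.

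The fast skeletal isoforms were present at low levels in both groups. Tnni2, fast troponin I, had 17.4, 7.50, 11.1, 12.4 and 8.61 CPM in HO 1 to HO 5, against 6.81, 17.01, 6.83 and 13.03 CPM in WT 1 to WT 4. Each group held both low and high libraries, and the log2 fold change was 0.06 (SE 0.33). Tnnt3, fast troponin T, had 2.34, 1.43, 3.20, 2.39 and 1.89 CPM in HO, against 1.89, 2.88, 1.42 and 2.42 CPM in WT, from 41 to 116 reads per library. Its log2 fold change was also 0.06 (SE 0.32), with groups that cover nearly the same range. The fast troponin C gene Tnnc2 (chromosome 2, 164777161 to 164779967, minus strand) had 0 counts in all 9 libraries, which allows up to 3 counts or 0.107 CPM in the shallowest. Since 74% of its exon bases are shared with exons of Ube2c on the opposite strand and the strand setting of the counting is not given, a count of 0 does not show that the transcript was absent. Over the 7 genes with reads, 5 had a log2 fold change below 0, as did 49.4% of all genes tested.

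Within each subunit, the isoform make-up differed between genotypes in troponin T. With counts divided by the length of all annotated exons, Tnnt1 formed 4.04 ± 0.81% of troponin T transcript in HO (range 2.96% to 5.02%) and 7.51 ± 0.51% in WT (range 6.80% to 7.996%). Divided by the median coding transcript, which is 1.1045 kb for Tnnt2, the shares of Tnnt1 were 1.41 ± 0.29% in HO and 2.67 ± 0.19% in WT. With either length, no HO library reached the lowest WT share, while Tnnt2 supplied at least 91.3% of troponin T in every library. The log2 ratio of Tnnt1 to Tnnt2 was -4.58 ± 0.31 in HO and -3.61 ± 0.11 in WT, a difference of -0.97 in HO against WT. Troponin I had nearly the same make-up in both groups, Tnni1 forming 73.9 ± 1.95% in HO and 73.7 ± 0.75% in WT, and Tnni3 forming 24.6 ± 1.74% in HO and 25.01 ± 0.61% in WT. The level of these shares depends on the length: by coding length Tnni1 formed 84.9% in HO and 84.8% in WT and Tnni3 14.3% in HO and 14.6% in WT, and by median coding transcript Tnni3 formed 17.6% in HO and 17.97% in WT. The log2 ratio of Tnni1 to Tnni3 was 1.59 ± 0.14 in HO and 1.56 ± 0.05 in WT.

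The libraries differed in their content of heart muscle transcript, so each troponin gene was also set against the mean log2 CPM of 17 thick filament and Z-disc genes of cardiac muscle. That mean ranged from 6.97 to 7.60 in HO and from 6.78 to 7.95 in WT. Relative to it, Tnnt1 stood at -3.35 ± 0.36 in HO (range -3.64 to -2.73) and at -2.29 ± 0.22 in WT (range -2.47 to -1.97), again without overlap and with a log2 difference of -1.06. Relative to the heart muscle mean, the genotypes overlapped for each of the 4 abundant genes. Their differences on this scale were -0.09 for Tnnt2, -0.0046 for Tnni1, -0.04 for Tnni3 and 0.07 for Tnnc1. Tnnt2 separated by file-name number instead, at 3.20 to 3.45 in libraries of the first number and 2.65 to 3.14 in the others. The part of heart muscle content in the level of Tnnt1 was not tested.

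**Figure D2:**
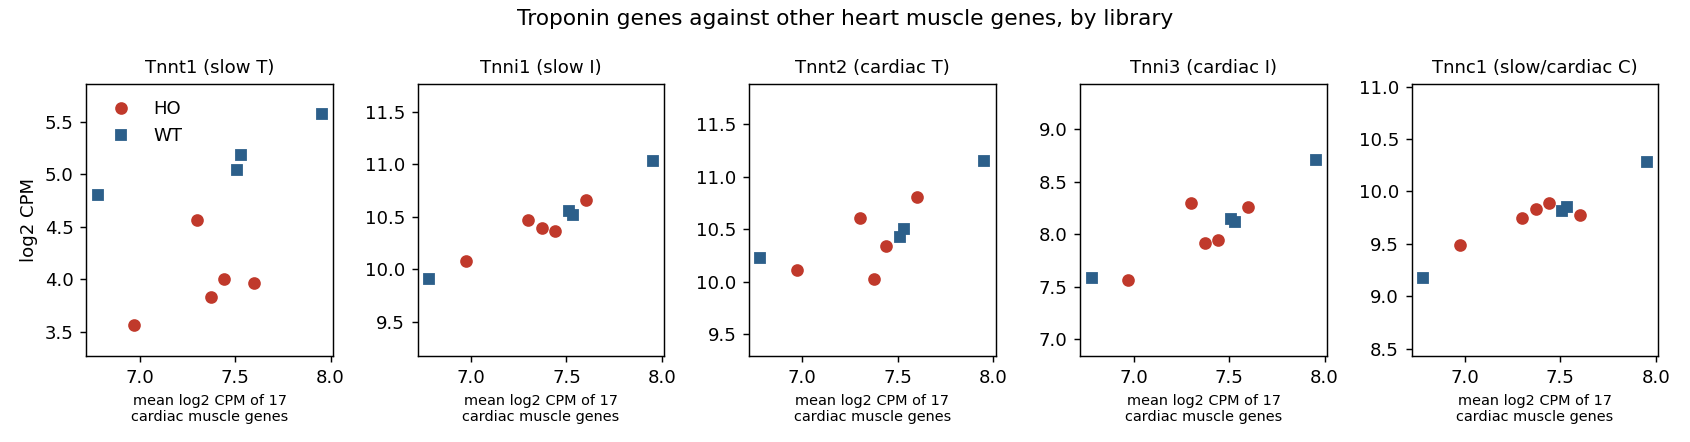
Log2 CPM of 5 troponin genes (vertical, each panel spanning the same number of log2 units) against the mean log2 CPM of 17 other cardiac muscle genes (horizontal), 1 point per library, HO as circles and WT as squares. For Tnni1, Tnnt2, Tnni3 and Tnnc1 the genotypes overlap relative to the horizontal axis, whereas the 5 HO points of Tnnt1 all lie below the 4 WT points. Tnnt2 separates by file-name number relative to that axis.

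Libraries that share a file-name number were compared with each other. Tnnt1 averaged 19.6 CPM in HO and 37.7 CPM in WT within the first number (2 libraries each), a log2 fold change of -0.92 (SE 0.33). Within the other numbers it averaged 14.0 CPM in 3 HO libraries and 34.6 CPM in 2 WT libraries, a log2 fold change of -1.31 (SE 0.16). The difference between these changes was 0.37 (SE 0.38), with an edgeR adjusted p of 0.919. For the abundant genes the change within the first number and within the others was -0.03 and -0.30 for Tnnt2, 0.0079 and -0.25 for Tnni1, 0.05 and -0.31 for Tnni3, and -0.04 and -0.09 for Tnnc1. For none of the 7 genes did edgeR call the difference of the changes, which it did for 0.0605% of all genes. An unadjusted p under 0.05 was met by 7.35% of all genes and by 0 of the 7, which is too few genes to read apart from that share.

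**Figure D3:**
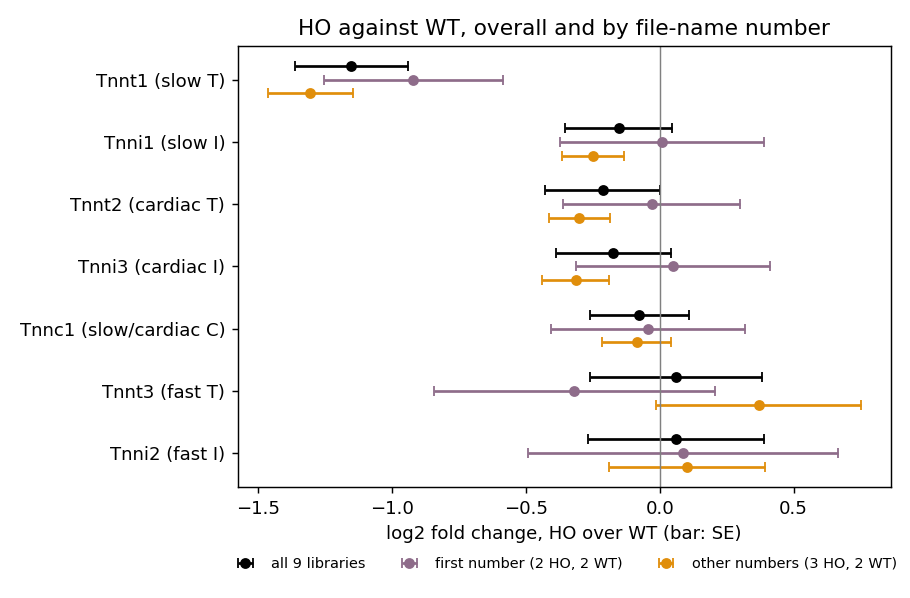
Log2 fold change of HO over WT with its standard error for 7 troponin genes, over all 9 libraries, within the first file-name number and within the other numbers. Tnnt1 lies between -1.31 and -0.92 in all 3, and the slow and cardiac genes lie between -0.31 and 0.05, with wider standard errors within the first number than within the others.

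The number itself was also tested as a factor beside genotype, a split that played no part in choosing the genes. Between the first number and the others, edgeR called 9.84% of all genes and 0 of the 7 troponin genes. At an unadjusted p under 0.05, met by 26.7% of all genes, there was 1 troponin gene, Tnnt2. Tnnt2 averaged 1704 ± 449 CPM in libraries of the first number (SD, n = 4) and 1255 ± 175 CPM in the others (SD, n = 5). The log2 fold change of the first number over the others was 0.43 (SE 0.17, edgeR adjusted p = 0.135). Without WT 1 that change was 0.59 (edgeR adjusted p = 0.0197) and that of Tnni3 was 0.504 (edgeR adjusted p = 0.0254), both past the threshold. Without WT 2 they were 0.28 (edgeR adjusted p = 0.314) and 0.13 (edgeR adjusted p = 0.718). The share of all genes called without WT 1 is not given here, so nothing is read from these 2 calls. Tnnt1 differed by 0.32 (SE 0.19, edgeR adjusted p = 0.308).

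Other muscle genes were compared in lists of thin filament, thick filament, slow muscle and skeletal muscle genes. edgeR called 0 members of any list in either direction, as it called 0% of all genes, and limma-voom called 0 members of these 4 lists. Among 16 genes listed as the thin filament and its partners the median log2 fold change was -0.19, with 14 below 0, against a median of 0.0029 over all genes. At an unadjusted p under 0.05, 0 were higher and 3 lower: Mybpc1, slow skeletal myosin-binding protein C, its fast counterpart Mybpc2, and the tropomyosin gene Tpm2. Myosin-binding protein C belongs to the thick filament, although its genes were in this list. Mybpc1 had 18.8, 11.7, 34.1, 35.5 and 27.0 CPM in HO, against 37.5, 63.4, 43.6 and 56.1 CPM in WT, without overlap. The log2 fold change was -0.98 (SE 0.30, edgeR adjusted p = 0.896). Actc1 was at -0.17 and Tpm1, the main cardiac tropomyosin gene, at -0.21. Among 17 thick filament and Z-disc genes the median was -0.18 with 14 below 0, and 0 had an unadjusted p under 0.05. The nearest were Myh6 (-0.55, SE 0.30) and Actn2 (-0.37, SE 0.23). These 17 did not include the myosin-binding protein C genes, so the 2 lists do not separate thin from thick filament.

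In the list of 8 slow muscle calcium and contraction genes, 0 were higher and 2 lower at an unadjusted p under 0.05, and DESeq2 called 1. That gene was Sln, which encodes sarcolipin, an inhibitor of the calcium pump, with 21.34, 9.25, 12.4, 9.59 and 10.4 CPM in HO, against 36.8, 48.9, 21.33 and 30.4 CPM in WT. HO 1 met the lowest WT library, WT 3, and all other HO libraries lay below. Its log2 fold change was -1.44 (SE 0.29, edgeR adjusted p = 0.446). The calcium-binding Casq2 was at -1.29 (SE 0.57). Of 24 skeletal muscle markers, 22 were in the files and 9 passed the low-count filter, 7 of them below 0 and the median at -0.67 on the log2 scale; DESeq2 called 0, and at an unadjusted p under 0.05 there were 0 higher and 2 lower. These were Casq1, skeletal calsequestrin (-0.84, SE 0.23), and Chrna1, the muscle acetylcholine receptor subunit (-2.54, SE 0.80), which had 20, 3, 0, 4 and 5 reads in HO 1 to HO 5, against 57, 54, 16 and 18 reads in WT 1 to WT 4. The fast myosin light chain gene Myl1 was at 26.3 ± 8.47 CPM in HO and 16.8 ± 5.81 CPM in WT (log2 fold change 0.65, SE 0.30).

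**Figure D4:**
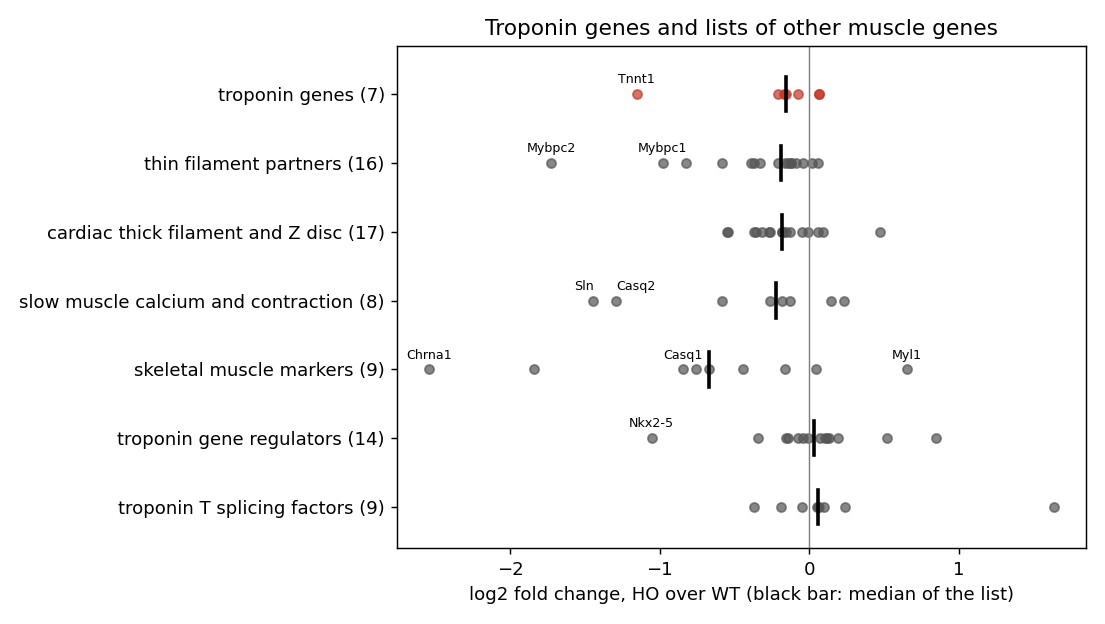
Log2 fold change of HO over WT for 7 troponin genes and for the tested genes of 6 lists of muscle genes and their regulators, 1 point per gene, a black bar at the median of each list and the number of genes in brackets. The thin filament, thick filament and slow muscle lists have medians of -0.19, -0.18 and -0.22, and Tnnt1 lies with Sln, Casq2, Mybpc1, Mybpc2 and Casq1 at the lower end.

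Because Tnnt1 is a skeletal muscle gene in the adult, the levels of skeletal muscle markers are given beside it. Over all 22 markers the summed level was 99.5 to 162 CPM in HO and 146 to 315 CPM in WT. Most of it was Casq1, so the sum follows that gene and does not measure skeletal muscle cells. The 4 myogenic factor genes Myod1, Myog, Myf5 and Myf6, the progenitor gene Pax7 and the embryonic and perinatal myosin genes Myh3 and Myh8 together reached 0.053 to 1.40 CPM in HO and 0.58 to 7.62 CPM in WT. Pax7 was at 0 in every library. The higher WT values were those of WT 1 and WT 2, at 5.84 and 7.62 CPM. Outside the first number these 7 genes summed to at most 0.86 CPM in HO and 0.78 CPM in WT, and the groups overlapped. In the same libraries the sum of all 22 markers did not overlap, at 139, 99.5 and 122 CPM in HO 3 to HO 5, against 197 and 146 CPM in WT 3 and WT 4. Casq1, which made up most of that sum, was lower in HO there (106, 77.1 and 85.7 CPM, against 176 and 119 CPM in WT). So was Chrna1 (0, 4 and 5 reads in HO, against 16 and 18 reads in WT). Myl1 overlapped there, at 24.9, 13.3 and 29.0 CPM in HO, against 9.33 and 15.3 CPM in WT. Mylpf, another fast myosin light chain gene, also overlapped, at 2.56, 1.71 and 2.82 CPM in HO, against 4.01 and 2.42 CPM in WT. The part of skeletal muscle cells in the level of Tnnt1 was not tested.

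Regulators of troponin genes and splicing factors of troponin T had medians near 0. Of 14 regulators, 2 were higher and 2 lower at an unadjusted p under 0.05 and DESeq2 and limma-voom each called 0. Lower were Nkx2-5 and Myocd (-0.34, SE 0.13), the serum response factor partner of heart and smooth muscle. Higher were Tbx20 (0.52, SE 0.22) and Isl1 (0.84, SE 0.36). Isl1 averaged 67.4 ± 42.4 CPM in HO and 37.5 ± 6.24 CPM in WT (SD), and its highest library was HO 2, at 142 CPM. HO 2 is also the library that stood apart in neuron and Schwann cell markers. The part of that library in the change of Isl1 was not tested. Mef2c was at -0.04, Gata4 at 0.13 and Tead1 at 0.10. Of 9 splicing factor genes in the files, 1 had an unadjusted p under 0.05, Celf2 at -0.37 (SE 0.17), and DESeq2 and limma-voom each called 0. The counts do not resolve transcripts, so splicing of Tnnt2 or Tnnt1 was not measured.

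Markers of other cell types were summed over their lists. Smooth muscle markers reached 3128 to 4510.4 CPM in HO and 4516 to 4968 CPM in WT, and epicardium markers 464 to 799 CPM in HO and 745 to 1152 CPM in WT. Endothelial markers reached 773 to 944 CPM in HO and 734 to 885 CPM in WT, and erythroid markers 1879 to 5541 CPM in HO and 1755 to 10307 CPM in WT. Foregut epithelium markers reached 46.2 to 69.8 CPM in HO and 72.2 to 88.5 CPM in WT. Most of that sum was Krt18 (mean 36.5 CPM in HO and 48.6 CPM in WT) and Krt8 (14.9 and 29.7 CPM). Only these 2 of the 5 tested genes in the foregut list were below 0. Epcam (0.27, SE 0.98), Cdh1 (0.76, SE 0.93) and Sox2 (1.57, SE 1.01) went the other way, so the sum does not measure foregut epithelium. The part of these cell types in the level of Tnnt1 was not tested. Of the smooth muscle and epicardium genes, 6 of 9 and 4 of 8 were lower at an unadjusted p under 0.05 and 0 higher, against 2.94% of all genes lower. Among the 6 smooth muscle genes, Myh11 and Lmod1 had their highest level in WT 1, at 34.5 and 7.31 CPM. Their WT means were 12.8 ± 14.6 and 3.46 ± 2.71 CPM (SD), so that library weighs heavily in these 2 changes. The most abundant smooth muscle marker, the actin gene Acta2, averaged 1385 ± 283 CPM in HO and 1777 ± 129 CPM in WT, and the epicardium marker Upk3b 251 ± 79.7 CPM in HO and 376 ± 74.0 CPM in WT. DESeq2 called the keratin genes Krt19 of the epicardium list (-0.84, SE 0.19) and Krt8 of the foregut list (-0.99, SE 0.15), both lower, and limma-voom called Krt8.

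Patterns over the libraries were compared last. The genes with the highest Pearson correlation of log2 CPM to Tnnt1 over the 9 libraries were Ap5b1 (0.96), B3galt4 (0.95), Als2cl (0.94), Sln (0.94) and Pxmp2 (0.94), and all 5 had lower means in HO than in WT. For Tnnt2 they were Dhdh (0.96), Mtfr1l (0.95), Idh2 (0.94), Nfs1 (0.94) and 1110001J03Rik (0.93). These values describe likeness in libraries that share depth and composition, and both genotypes are pooled in them. Among the other 6 troponin genes with reads, 15 pairs were correlated over the 9 libraries, with p-values from exact two-sided permutation and adjusted over the 15 pairs. The permutation treats the 9 libraries as exchangeable, although they share file-name and replicate numbers, so these p-values may be too small. Tnni1 and Tnni3 had r = 0.96 (adjusted p = 0.00339) and rho = 0.87 (adjusted p = 0.0338), and r = 0.92 without the 2 libraries farthest from the median of Tnni1. Tnnt2 and Tnni3 had r = 0.898 (adjusted p = 0.0086) and rho = 0.92 (adjusted p = 0.0197), and r = 0.91 without the 2 farthest. Tnnt3 and Tnni2, the fast pair, had r = 0.77 (adjusted p = 0.0471) but rho = 0.63 (adjusted p = 0.285), and r = 0.61 without the 2 farthest. Tnni1 with Tnnc1 had r = 0.93 (adjusted p = 0.0096) but rho = 0.55 (adjusted p = 0.398). Tnni3 with Tnnc1 had r = 0.85 (adjusted p = 0.0182) but rho = 0.45 (adjusted p = 0.431), and Tnnt2 with Tnni1 had r = 0.84 (adjusted p = 0.0182) and rho = 0.82 (adjusted p = 0.0538). For the other 9 pairs neither measure passed, with adjusted p for r of 0.135 or more. Heart muscle content also differed between libraries, the mean of the 17 cardiac muscle genes running from 6.78 to 7.95 log2 CPM. No correlation was computed for pairs of other heart muscle genes, so these values are not read as particular to troponin genes. Tnnt1 was left out because its values separate by genotype. Each file-name number holds too few libraries for a correlation within it.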

How the data were processed

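Each library has 1 deposited file of raw counts by gene symbol. RNA came from an RNeasy kit and libraries from a SMART-Seq kit for low input, per the labels. The authors named STAR 2.5.0c, Picard, DESeq2 and HTSeq 0.6.0 with the build mm10 in the submitters' processing notes; annotation and strand setting are not given in the sources consulted. The 5 rows naming no gene (20.6% to 23.5% of reads) were left out.

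Counts of all 9 libraries were fitted in R 4.3.3 by the quasi-likelihood test of edgeR 4.0.16 (TMM, filterByExpr with a minimum count of 10, genotype as the term, Benjamini-Hochberg adjusted p of 0.05), which kept 16522 genes. CPM were computed on TMM-scaled depths, with 2 prior counts for log2 CPM. Alternatives were DESeq2 1.42.0 and limma 3.58.1 (voom with sample weights). The procedure was tested on simulated counts. Fold changes are HO over WT. All 36 library pairs differed by more than sampling noise. Libraries of the 2 genotypes with the same replicate number in the sample titles deviated together from their group means (r = 0.242, 0.137, 0.227 and 0.176). The replicate number was therefore tried as a block. These libraries also share a file-name number, and libraries of unlike replicate number were not compared, so the r values do not show that the libraries are paired. The file-name number was tested with genotype in the fit.

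The genes and lists were chosen with earlier results of these data known. The rule for naming took all 8 troponin genes, Nkx2-5, the 2 to 3 genes of smallest p in each muscle list, the 5 genes most like Tnnt1 and the 5 most like Tnnt2, and up to 3 abundant markers of other cell types. Mef2c, Gata4, Tead1, Isl1, Actc1, Tpm1, Krt19, Krt8, Clu, Gja3, Pcsk6, Cox6a2, Gm3375, Myh11 and Lmod1 were named after their values were seen. Shares of a subunit use all annotated exons, and the median coding transcript as an added alternative.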

Additional observations from a re-analysis of the deposited data

How the results depend on the processing

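With the replicate number as a block, edgeR called 0 genes and Tnnt1 stood at -1.13 (SE 0.24); DESeq2 called 69 genes with the block and 40 without, and Nkx2-5 passed at -1.02 (DESeq2 adjusted p = 0.0241). The block changed no other edgeR call. limma-voom called 4 genes (Clu, Gja3, Krt8 and Pcsk6), and edgeR within the second file-name number called 6, Casq2 and Cox6a2 among them. Leaving out each library gave 0 to 1 edgeR calls, the 1 being Gm3375 without WT 3. Tnnt3 moved to 0.54 (SE 0.39) within the second number, where 2 libraries per genotype remain. The change of Tnnt2 between file-name numbers ran from 0.28 to 0.59 and that of Tnni3 from 0.13 to 0.504 when each library was left out; the cause of the 2 calls without WT 1 was not tested. Tnnt1 kept its sign in every fit run, from -1.33 to -0.92. Of 140 recomputed changes of HO over WT for the 7 troponin genes, 12 had the other sign. These were Tnnt2 and Tnnc1 without WT 2, Tnni1 and Tnni3 without WT 2 and within the first number, Tnni2 without HO 1, WT 1 or WT 3, and Tnnt3 without HO 3 or WT 3 and within the first number (-0.32). Another length moved every share of troponin T and troponin I beyond the spread between libraries, 36 values in all.

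Precision is limited by the number of libraries, and for Tnnt3 also by its 41 to 116 reads. Tnnc2 could not be assessed.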

Other observations

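The balance of the troponin I isoforms, and of Tnni1 to Tnnt2, overlapped between genotypes but not between the first file-name number and the others. Both were noticed after the values were seen and were not tested. The log2 ratio of Tnni1 to Tnni3 was 1.36 to 1.592 in the 4 libraries of the first number and 1.596 to 1.71 in the other 5, a narrow gap. The log2 ratio of Tnni1 to Tnnt2 was 0.78 to 0.99 in the first number and 1.07 to 1.47 in the others. The first number and the others pooled each hold HO and WT libraries, although the number of HO 5 holds no WT library. The ratio of Tnni3 to its neighbour Tnnt1 behaved otherwise: it was 3.83 to 4.40 in HO and 2.88 to 3.24 in WT, without overlap. Each genotype held libraries of the first file-name number and of the others.

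For Nkx2-5 and the 7 troponin genes with reads, in each genotype, 0 libraries stood apart from their group by Dixon's criterion. With 4 or 5 libraries in a group that criterion can miss a library that differs. For Nkx2-5, WT 1 was at 18.8 CPM and the other WT libraries at 39.5 to 45.0 CPM.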
